A study of Homo sapiens with 8 samples.

Results

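The clustered histone genes encode the core histones H2A, H2B, H3 and H4 and the linker histone H1 from gene clusters. They were taken as the protein-coding rows of the gene count table whose name starts with HIST1H, HIST2H, HIST3H or HIST4H. This rule, which uses no measured value, found 71 of 58735 rows. Of these, 55 lay in the HIST1 cluster on chromosome 6, 12 in HIST2 and 3 in HIST3 on chromosome 1, and 1 was HIST4H4 on chromosome 12 (coordinates of the table, GRCh38). By histone class there were 6 H1, 17 H2A, 18 H2B, 15 H3 and 15 H4 genes.

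The RNA-seq table covered 8 libraries, all labelled as the lung adenocarcinoma cell line A549. In 4 libraries the cells carried an empty lentiviral vector (EV group), and in 4 they carried a lentivirus that overexpresses KRT19, keratin 19 (KRT19 group). All cells were therefore transduced and, per the study's methods, selected with puromycin into stable lines. No untransduced control was analysed here. Whether the replicates were separate cultures is not given in the sources used here, so p-values measure the spread between these libraries, which may be technical. KRT19 had 1 to 5 counts in the EV libraries and 4353 to 5147 in the KRT19 libraries.

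Total counts ran from 14073065 to 17054364 per library. Within a group, library pairs differed by more than counting noise (chi-square per degree of freedom 2.79 to 6.49), and the pairs with KRT19 replicate 3 differed most (7.72 to 13.6). The keratins KRT8 and KRT18 had 2988 to 5746 counts, whereas the epithelial genes EPCAM and CDH1 had 0 to 3. None of 6 lung lineage markers was above 3 counts in every library, and SFTPB, SFTPC, SFTPA1 and SFTPA2 were at 0. CDKN2A had 1328 to 1824 counts and MTAP 653 to 870, although this locus is known as deleted in A549. The extraction label names retina. SAG and RCVRN, retinal genes, were at 0 in every library, 3 of the 12 retinal markers were above 3 counts in every library, and the 12 summed to 3.18 to 4.22 CPM (counts scaled to library size) in EV and 2.69 to 4.48 CPM in KRT19 libraries. The markers thus did not settle the identity of the line, which is named here only as labelled.

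Most of these genes are replication-dependent: they supply the histones that package new DNA and are transcribed mainly in S phase. Their mRNAs typically end in a short stem-loop instead of a poly(A) tail. The stem-loop is bound by SLBP, and the U7 snRNP directs the cut just after it. Some clustered histone genes can also give longer, polyadenylated transcripts that run past the stem-loop, in particular in cells that leave the cycle. Variant histones such as H2AFZ and H3F3B lie outside the clusters and have ordinary poly(A) mRNAs. Libraries made from poly(A) RNA therefore see only part of the histone mRNA, and whether poly(A) RNA was selected is not given in the sources used here.

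To show what sets these mRNAs apart, the annotated 3′ ends were searched for a 16-base stem-loop with 6 perfect pairs (G-T allowed), starting GG and ending CC, around a 4-base loop with T at its bases 1 and 3. Of the 71 genes, 36 had an annotated 3′ UTR in GENCODE 29, and 32 held the stem-loop in it (45.1% of the 71). In the same search, run over every protein-coding transcript, 2.40% of 19613 other protein-coding genes held it. The commonest form stood in 17 genes, among them HIST1H2AC (chr6:26124664-26124689, plus strand). The form of HIST1H4H (chr6:26285126-26285151, minus strand) stood in 5 genes, all H4, and that of HIST1H4I (chr6:27139649-27139674, plus strand) in 3, also all H4. HIST1H2BD (chr6:26158582-26158607, plus strand) showed a form found in 5 genes. HIST1H2AG (chr6:27133510-27133535, plus strand) and HIST1H3E (chr6:26225591-26225616, plus strand) each had a form of their own. Capitals mark the stem-loop.
HIST1H2AC: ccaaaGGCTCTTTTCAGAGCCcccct
HIST1H4H: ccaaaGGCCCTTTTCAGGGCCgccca
HIST1H4I: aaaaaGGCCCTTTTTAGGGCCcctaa
HIST1H2BD: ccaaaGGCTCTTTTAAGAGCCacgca
HIST1H2AG: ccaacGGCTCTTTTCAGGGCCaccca
HIST1H3E: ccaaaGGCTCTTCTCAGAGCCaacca

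The clustered histone genes were weakly represented. Together they took 0.0271% to 0.0280% of the counts in EV libraries and 0.0260% to 0.0264% in KRT19 libraries. Of the 71 genes, 27 were above 3 counts in every library and 44 were not. Of the 44, 13 were above 3 counts in some libraries, 20 had 1 to 3 counts at most and 11 had no count in any library. A count of 3 corresponds to 0.176 to 0.213 CPM, and this floor reflects counting error alone, as PCR copies were not marked by molecular identifiers.

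Detection differed by class. H2B had 11 of 18 genes above the floor in every library and H2A 7 of 17, whereas H4 had 5 of 15, H3 had 3 of 15 and H1 had 1 of 6. H2B genes held 51.0% of all counts of the 71 genes, H2A 21.8%, H1 8.29% and H3 3.94%, and H4 genes held 14.5% to 15.8% per library. These shares moved little between libraries: the H2B share ran from 49.3% to 53.0% and the H3 share from 3.53% to 4.43%. The counts were thus far from equal between the 4 core histones, although a nucleosome holds them in equal number. By cluster, HIST1 held 94.9% of the counts, HIST2 3.20%, HIST3 1.65% and HIST4H4 0.274%.

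**Figure D1:**
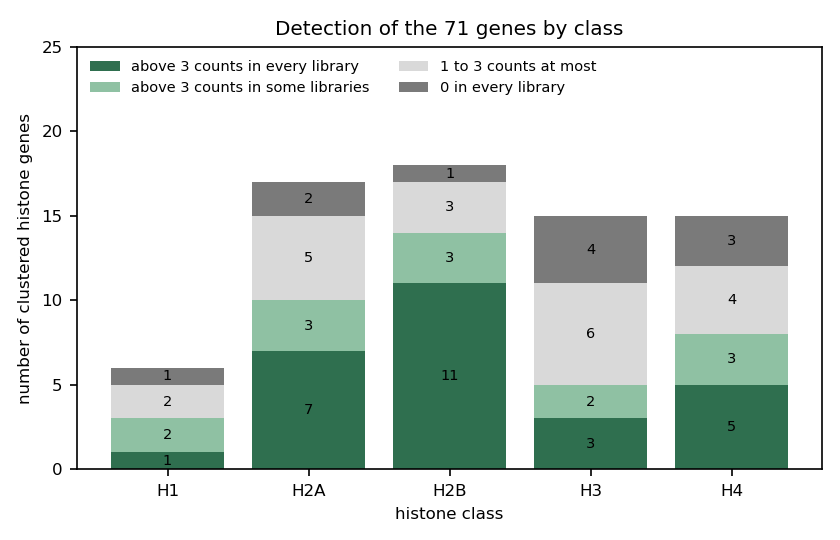
Number of clustered histone genes (vertical axis) in each histone class (horizontal axis), stacked by detection in the 8 libraries. H2B has 11 of 18 genes above 3 counts in every library, and H3 has 3 of 15.

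The counts were concentrated in few genes. HIST1H2BK, an H2B gene, held 33.5% of them, the 4 highest genes 67.7%, and the 15 highest 94.0%. HIST1H2BK had 1352, 1486, 1493 and 1558 counts in the EV libraries and 1600, 1216, 1427 and 1368 in the KRT19 libraries. The next were HIST1H2AC, an H2A gene, with 531 to 723 counts over the 8 libraries, HIST1H4I, an H4 gene, with 455 to 580, and HIST1H1C, which encodes the linker histone H1.2, with 271 to 378. In each of these genes the EV and KRT19 libraries overlapped. HIST1H1C was the only H1 gene above the floor in every library.

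A second tier of 11 genes completed the 15 highest. The H2B genes HIST1H2BD (144 to 215 counts), HIST1H2BJ (105 to 163), HIST1H2BC (91 to 122) and HIST2H2BE (87 to 127), and the H2A gene HIST1H2AG (118 to 182), stood above the others. HIST1H4H had 69 to 115 counts and the H3 genes HIST1H3H and HIST1H3G had 68 to 110 and 57 to 90. HIST1H2BN had 47 to 79, HIST3H2A 40 to 81 and HIST1H2BH 39 to 77. Below these lay HIST1H2BG (32 to 61) and HIST1H2AE (23 to 45), and every other gene had at most 29 counts in any library.

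**Figure D2:**
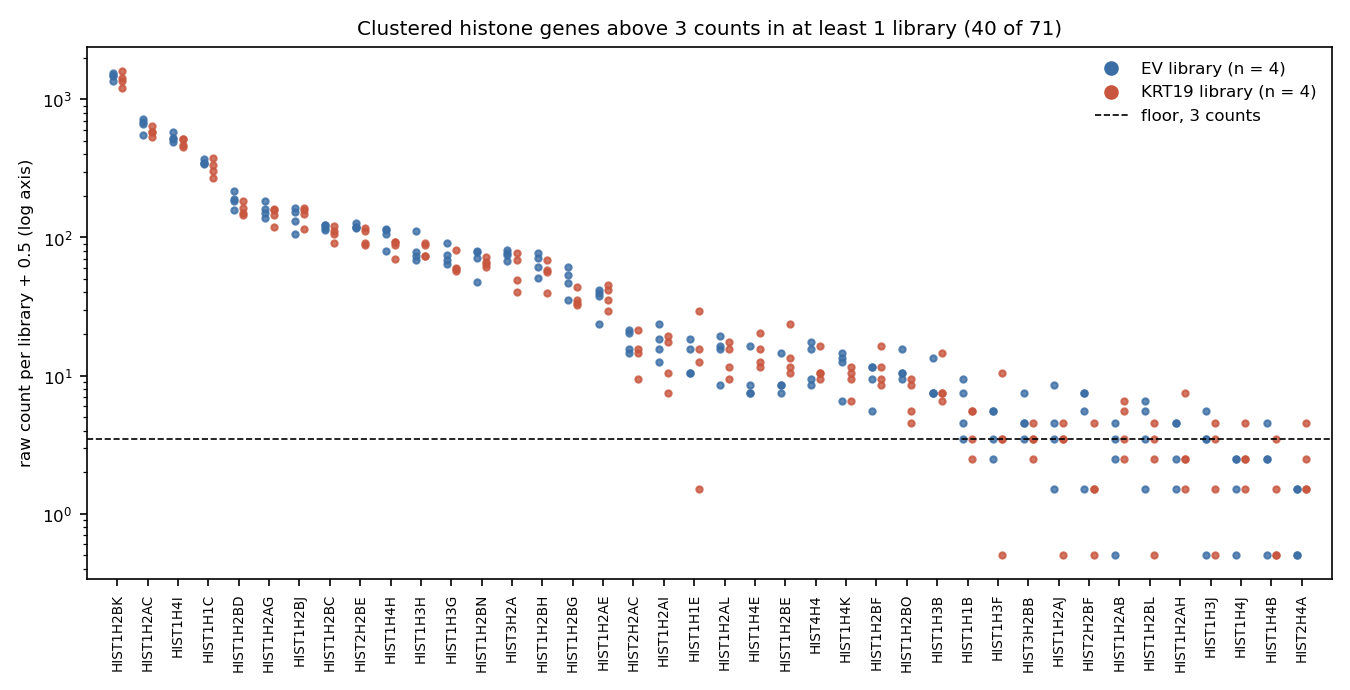
Raw count plus 0.5 on a log axis in each EV (blue) and KRT19 (red) library for the 40 of 71 genes above 3 counts in at least 1 library, ordered by mean count, with the floor of 3 counts dashed. HIST1H2BK stands above 1000 counts in every library, and the EV and KRT19 points overlap in each gene with more than 20 counts on average.

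Around the floor the order is not resolved. HIST1H2BO (4 to 15 counts) and HIST1H2BF (5 to 16) were the genes just above the floor in their lowest library, and HIST1H1B (2 to 9) and HIST3H2BB (2 to 7) the genes just under it. HIST1H1E, chosen for mention after its values were seen, had 10, 10, 18 and 15 counts in EV and 15, 12, 29 and 1 in KRT19 libraries. It was under the floor only in KRT19 replicate 4, and its highest and lowest libraries were both in the KRT19 group.

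Scaled to the gene length given in the table, HIST1H2BK was again the highest at 236 ± 9.98 CPM per kb (SD, n = 8). It was followed by HIST1H1C (32.7 ± 1.90), HIST1H4I (24.5 ± 1.07) and HIST1H2AC (23.3 ± 1.85), and then by HIST1H2BD (12.4 ± 1.51), HIST1H2BJ (9.32 ± 1.23) and HIST1H2BC (8.46 ± 0.741). HIST1H2BK and HIST1H1C stood clear of the genes below them in all 8 libraries, whereas HIST1H4I overlapped HIST1H2AC, HIST1H2BD overlapped HIST1H2BJ, and HIST1H2BJ overlapped HIST1H2BC. The models of HIST1H2BK and HIST1H1C hold coding sequence alone (381 and 642 bases), so reads from any 3′ end of theirs were not part of these counts and the level per length rests on a short model. On the same scale the variant histone gene H2AFZ had 291 ± 11.4 CPM per kb, H2AFX 119 ± 3.70, H3F3B 103 ± 3.27 and H3F3A 59.0 ± 1.38. All 4 were thus above every clustered gene other than HIST1H2BK, and H2AFZ was also above HIST1H2BK.

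In many of the highest genes, though not in HIST1H2BK or HIST1H1C, whose models have no 3′ UTR, the annotated transcript goes on past the stem-loop. Of the 15 highest genes, 13 had an annotated 3′ UTR and 12 held the stem-loop in it. Of these 12, 11 had more than 100 annotated bases after the stem-loop. Of the 15, 12 ended with a poly(A) signal (AATAAA or ATTAAA in the last 50 bases). Of the 44 genes not above the floor in every library, only 16 had an annotated 3′ UTR. Among the 44, 13 had the stem-loop, 7 had more than 100 bases after it and 9 ended with a poly(A) signal. Both features were sought only in an annotated 3′ UTR, so these counts depend on where one is annotated. The annotated stretch after the stem-loop was 1761 bases in HIST1H2AG, 1729 in HIST2H2BE, 1128 in HIST1H2AC and 212 in HIST1H4I. HIST1H3E, with no count in any library, has 1862 annotated bases after its stem-loop. Gene models above the floor were longer, with a median of 1196 bases against 411 bases in the genes with no count, and a longer model can collect more reads. The part of length and of the annotated 3′ end in these counts was not tested.

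Other short RNAs that usually carry no poly(A) tail were also nearly absent. Of 18 rows of such RNAs (7SK, 7SL, RNase MRP, U snRNA and small Cajal body RNA genes among them), 10 had no count in any library and 1, RN7SL2, was above the floor in every library, with 800 to 2633 counts. RN7SL1, its near-identical copy, was at 0, so the counts of this pair are uncertain. Whether the low histone counts come from the same source as these zeros was not tested.

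Near-identical copies and overlapping genes also touch the low values. In 17 of the 71 genes more than 50% of the 75-base words occurred in another gene as well, and 14 of the 17 were among the 44 genes not above the floor. HIST2H2AA3 and HIST2H2AA4, HIST2H3A and HIST2H3C, and HIST2H4A and HIST2H4B are such copies, and HIST1H2AK lies inside HIST1H2BN on the opposite strand. How reads that match several genes and reads on the opposite strand were treated is not given in the sources used here, so the counts of these genes are uncertain. HIST1H1D (0 counts) and HIST1H3E share no such word and overlap no gene. Of the 15 highest genes only HIST1H2BK passed this share, with 50.5% of its words also in H2BFS, HIST1H2BO, HIST1H2BE or HIST1H2BJ.

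The promoters carry the motifs known for this family. RefSeq windows from 250 bases before to 50 bases after the start (GRCh38.p14) were found for 61 of the 71 genes. The octamer ATTTGCAT, the binding site of the OCT factors, was present on either strand in 14 of 18 H2B and 11 of 14 H2A windows, in 1 of 10 H3 windows and in none of 13 H4 and 6 H1 windows, against 2.19% of 27305 genes. Divergent partners share a window in part, so these 26 windows held 17 distinct octamers: 8 of the 11 in H2A windows, and the 1 in an H3 window (HIST1H3D), were the same site as in an H2B window. CCAAT, read on both strands, was in all windows of H1, H2A, H2B and H3 genes and in 3 of 13 H4 windows, against 39.7% of all genes. TATAAA was in 41 of 61 windows against 13.99%. The octamer was present at similar rates in the H2B genes above the floor in every library (9 of 11) and in the others (5 of 7).

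The window of HIST1H2BK (chr6:27146809-27147108, minus strand, GRCh38.p14) is shown because this gene dominates the counts. Capitals mark the octamer, which begins 46 bases before the start, and every CCAAT and TATAAA on either strand, of which TATAAA and its reverse overlap once.
HIST1H2BK: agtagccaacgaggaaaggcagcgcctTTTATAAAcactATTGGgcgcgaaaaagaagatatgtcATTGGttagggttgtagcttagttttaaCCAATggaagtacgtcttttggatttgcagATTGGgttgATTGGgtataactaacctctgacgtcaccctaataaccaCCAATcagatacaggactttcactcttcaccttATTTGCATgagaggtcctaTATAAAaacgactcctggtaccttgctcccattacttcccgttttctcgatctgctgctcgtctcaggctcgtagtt

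In 8 of the 14 H2B windows with an octamer it began 45 to 49 bases before the start, and in the other 6, HIST1H2BC among them, it lay 104 to 149 bases before it. The 3 windows shown are of the first kind, chosen because their genes had very different counts. It began 47 bases before the start in HIST1H2BJ (chr6:27132823-27132854, minus strand; mean 142 counts), 48 in HIST1H2BG (chr6:26216717-26216748, minus strand; mean 42.2) and 48 in HIST1H2BM (chr6:27814962-27814993, plus strand), which had at most 1 count in any library. A match of letters is a description of the window and not of binding.
HIST1H2BJ: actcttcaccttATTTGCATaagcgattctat
HIST1H2BG: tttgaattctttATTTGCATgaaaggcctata
HIST1H2BM: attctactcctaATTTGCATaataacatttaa

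H2A and H2B genes often lie head to head and share the stretch between their starts. There were 12 divergent pairs of clustered histone genes with starts at most 500 bases apart. Among them, HIST1H2BO was paired with the H2A gene HIST1H2AM and also with the H3 gene HIST1H3J. Both HIST1H2AA and HIST1H2BA, another pair, had no count in any library. The members of a pair could differ widely in level. HIST1H2BK had 3773 counts per kb on average over the 8 libraries, and HIST1H2AH, whose start lies 330 bases away, had 7.43. HIST3H2A had 74.4 counts per kb and its partner HIST3H2BB 1.59. Other pairs were closer: HIST1H2BJ and HIST1H2AG had 149 and 67.2 counts per kb, HIST1H2AC and HIST1H2BC 372 and 135, and HIST2H2BE and HIST2H2AC 50.5 and 41.3. Of the H2A and H2B pairs with counts, the higher partner was H2B in some and H2A in others.

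**Figure D3:**
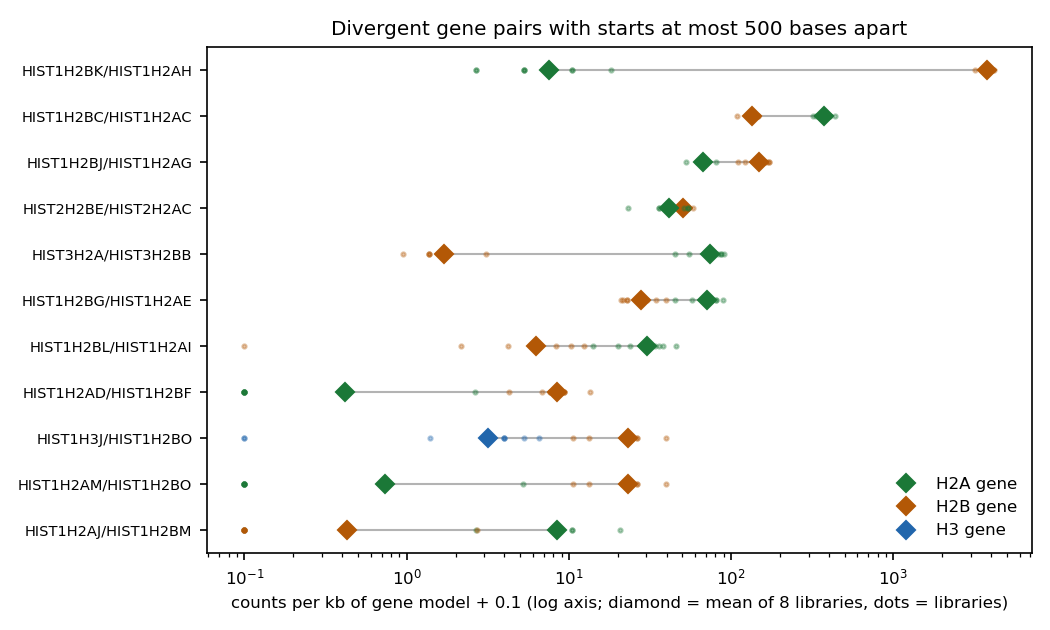
Counts per kb of gene model plus 0.1 on a log axis for divergent pairs with starts at most 500 bases apart and a mean above 3 counts in the higher gene (diamonds, mean of 8 libraries; dots, single libraries). The distance between partners is widest for HIST1H2BK and HIST1H2AH and narrowest for HIST2H2BE and HIST2H2AC.

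To explore whether these genes responded to KRT19, the KRT19 group was compared with the EV group over all 14621 genes that passed a filter on low counts. Of the 71 genes, 26 passed it and 45 did not and were not tested in this fit. HIST1H2BO and HIST1H3B were above the floor in every library but did not pass, and HIST1H1E passed without being above it. In the edgeR fit none of the 26 fell under the adjusted threshold of 0.05 (0.00684% of all tested genes did, KRT19 alone), and the lowest adjusted p was 0.906. At an unadjusted p under 0.05, 1 of the 26 was lower in the KRT19 group, where 2.56% of all tested genes were, and 0 were higher, where 2.85% were. In none of the 26 were the groups free of overlap, as they were in 3.44% of all tested genes. DESeq2 and limma-voom called 0 of the 26 at an unadjusted p under 0.05.

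HIST1H2BG, an H2B gene, was the gene at an unadjusted p under 0.05. It had 2.33, 3.19, 3.71 and 2.71 CPM in the EV libraries and 2.60, 2.28, 2.05 and 2.18 in the KRT19 libraries, so that only KRT19 replicate 1 reached the range of the EV group. Its log2 fold change was -0.39 ± 0.19 (SE, unadjusted p = 0.0493, adjusted p = 0.906). Its divergent partner HIST1H2AE, an H2A gene, had a log2 fold change of 0.15 ± 0.19. Its unadjusted p was no longer under 0.05 when EV replicate 2 or 3 or KRT19 replicate 2, 3 or 4 was left out, with the smallest difference (-0.27) without EV replicate 3. It was also no longer under 0.05 with DESeq2, limma-voom, the replicate block, a looser filter on low counts, or the removal of GC and length trends. Without KRT19 replicate 3, HIST3H2A, lower, and HIST1H4E, higher, were the genes at an unadjusted p under 0.05.

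Among the 15 highest genes, 12 had a log2 fold change under 0 and 3 above it, with values from -0.31 to 0.13. HIST1H2BK was at -0.02 ± 0.06 (0.0039 after removal of GC and length trends), with 90.5 ± 0.941 CPM in EV against 89.3 ± 5.64 in KRT19 libraries (SD, n = 4 per group). HIST1H2AC was at -0.11 ± 0.07, HIST1H4I at -0.06 ± 0.06 and HIST1H1C at -0.08 ± 0.07. HIST3H2A had the lowest value of the 15, at -0.31 ± 0.15 (unadjusted p = 0.0614). It had 4.46, 4.88, 4.50 and 4.53 CPM in EV and 4.10, 2.84, 4.51 and 3.24 in KRT19 libraries, so that only KRT19 replicate 3 lay within the EV range. None of these differences was larger than the spread between libraries by the adjusted test.

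Over all 26 tested genes, 18 had a log2 fold change under 0 and 8 above, and their median was -0.08, against a median of 0.01 and 47.8% under 0 over all tested genes. The median was -0.11 for 7 H2A, -0.05 for 10 H2B, -0.07 for 2 H3 and -0.06 for 5 H4 genes, and 0.03 for 2 H1 genes. Depth set how firmly single genes could be read. The 17 genes with a mean of 20 counts or more had standard errors up to 0.19, whereas the 9 genes under 20 counts had standard errors of at least 0.28. The 2 highest fold changes, of HIST1H2BE (0.66 ± 0.34, unadjusted p = 0.0663) and HIST1H4E (0.66 ± 0.35, unadjusted p = 0.0745), were of this second kind, with 7 to 23 and 7 to 20 counts.

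**Figure D4:**
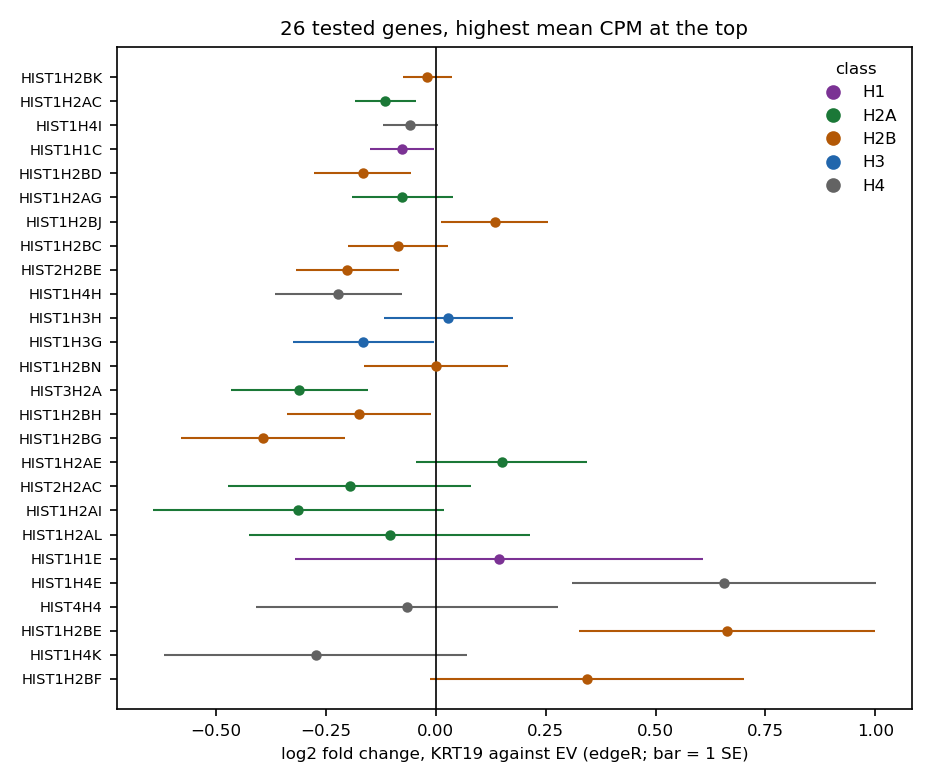
Log2 fold change of KRT19 against EV (horizontal axis, bar 1 SE) of the 26 tested clustered histone genes, ordered by mean CPM with the highest at the top and coloured by class. Of the 26 points, 18 lie under 0, and the bars widen towards the genes with few counts.

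Summed over the 71 genes, the level was 269, 271, 283 and 274 CPM in the EV libraries and 267, 260, 257 and 263 in the KRT19 libraries. Every KRT19 library was thus below every EV library, by a narrow margin, with means of 274 ± 6.26 and 262 ± 4.02 (SD, n = 4 each) and a difference of -4.54%. Without HIST1H2BK the difference was -6.11% and the groups again did not overlap. The 7SL RNA row RN7SL2, the 1 of the 18 rows of RNAs that usually lack a poly(A) tail to be tested, had 79.9, 105, 160 and 136 CPM in EV and 131, 87.1, 77.2 and 52.9 in KRT19 libraries (log2 fold change -0.47 ± 0.21, unadjusted p = 0.0389, adjusted p = 0.906). Its groups overlapped, and EV replicate 3 and KRT19 replicate 1 were the highest libraries of their groups in it as in the histone sum. EV replicate 1 was the lowest EV library in both. The lowest KRT19 library was replicate 4 in RN7SL2 but replicate 3 in the histone sum. The part of RN7SL2 in the difference of the sum was not tested. No test of the histone sum was made, because the genes were chosen with results of these data known. In bulk RNA, fewer cells in S phase and less histone mRNA per cell cannot be told apart. By flow cytometry, the study reported that KRT19 overexpression moved A549 cells from G1 into S phase. How that measurement relates to the histone sum in these libraries was not tested.

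By class, H2A was the 1 class whose sums did not overlap between the groups: 60.6 ± 2.68 CPM in EV and 56.0 ± 1.00 in KRT19. HIST1H2AC made up most of this sum (mean 40.3 CPM in EV and 37.3 in KRT19), and its own groups overlapped. The sums of H1, H2B, H3 and H4 were between 3.09% and 5.27% lower in the KRT19 group and overlapped. By cluster, the HIST2 sum was 9.24 ± 0.201 CPM in EV and 7.93 ± 0.776 in KRT19 without overlap, but the highest KRT19 library (8.93) nearly reached the lowest EV library (8.94). HIST2H2BE made up most of the HIST2 sum (mean 7.43 CPM in EV and 6.45 in KRT19), and its own groups overlapped. The HIST1, HIST3 and HIST4 sums overlapped. The 44 genes not above the floor added only 30 to 91 counts per library, or 0.755% to 2.07% of the counts of the 71 genes.

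**Figure D5:**
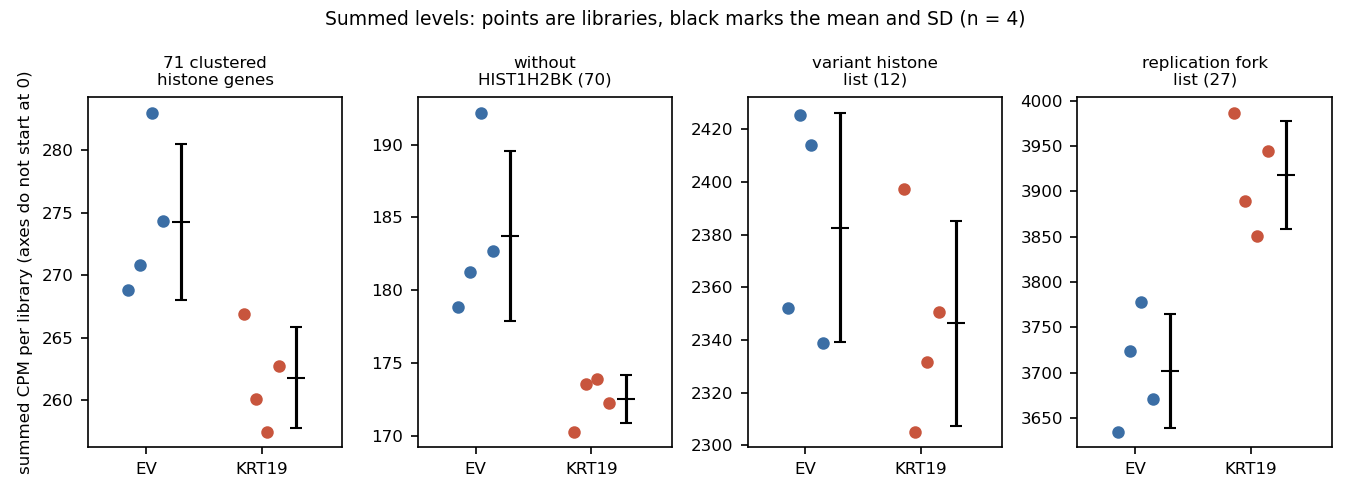
Summed CPM per library (points; axes do not start at 0) of the 71 clustered histone genes, of 70 without HIST1H2BK, of 12 variant histone genes and of 27 replication fork genes, with mean and SD (n = 4). The clustered genes are lower and the fork genes higher in all 4 KRT19 libraries than in all EV libraries, and the variant histones overlap.

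The machinery that makes and ends histone mRNAs was well expressed, and all 18 genes of stem-loop processing were tested. SLBP, the stem-loop binding protein, had 1953 to 2617 counts and a log2 fold change of 0.00 ± 0.06, LSM10 and LSM11, subunits of the U7 snRNP, had 0.01 ± 0.08 and 0.00 ± 0.08, and ZNF473, a zinc finger protein of the same machinery, had -0.06 ± 0.09. These 4 values lie within 1 standard error of 0. CASP8AP2 (FLASH), which acts in both transcription and processing, was the 1 of 18 at an unadjusted p under 0.05, in the higher direction, as were 2.85% of all tested genes. It had 22.1, 19.5, 17.9 and 20.7 CPM in EV and 20.6, 21.8, 28.0 and 23.8 in KRT19 libraries, with a log2 fold change of 0.23 ± 0.10 (unadjusted p = 0.0254, adjusted p = 0.906). KRT19 replicate 3 was its highest library, and the groups overlapped. Without that library, an alternative chosen after seeing the data, none of the 18 was at an unadjusted p under 0.05.

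Of 10 histone transcription genes, 9 were tested. All 9 had a log2 fold change above 0, as did 52.2% of all tested genes, with a median of 0.06, although POU2F1, YY1 and CDK2 were at 0.00 and NPAT turned to -0.012 after removal of GC and length trends. NPAT, the cyclin E target that activates histone promoters, was at 0.04 ± 0.10. Besides CASP8AP2, cyclin E2 (CCNE2) was higher at an unadjusted p under 0.05, as were 2.85% of all tested genes (0.29 ± 0.13, unadjusted p = 0.0447, adjusted p = 0.906). CCNE2 had 15.5 CPM in KRT19 replicate 3 and at most 11.4 CPM in the other KRT19 libraries, and EV libraries reached 11.4 CPM as well. Without KRT19 replicate 3 neither gene was at an unadjusted p under 0.05. In histone mRNA decay 14 of 16 listed genes were found and tested. PNRC1, a decapping coactivator, was the 1 of 14 with an unadjusted p under 0.05, and was lower in the KRT19 group, as were 2.56% of all tested genes, at -0.25 ± 0.07 (unadjusted p = 0.00385, adjusted p = 0.868).

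Of 12 variant histone genes 11 were tested, with a median log2 fold change of -0.02. H2AFZ, H2AFX and H3F3A were at 0.00 ± 0.05 and H3F3B was at -0.04 ± 0.04. CENPA, the centromeric H3 variant, was at -0.11 ± 0.06 (unadjusted p = 0.0970, adjusted p = 0.906). H1F0, the linker histone of cells that have left the cycle, had 60.7, 63.4, 61.5 and 61.9 CPM in EV and 57.7, 55.7, 53.6 and 52.4 in KRT19 libraries. All KRT19 libraries were below all EV libraries, at a log2 fold change of -0.17 ± 0.05 (unadjusted p = 0.00522, adjusted p = 0.868). It was the 1 of 11 without overlap, as were 3.44% of all tested genes, and the 1 lower at an unadjusted p under 0.05, as were 2.56%. Without KRT19 replicate 3, 2 of the 11, H1F0 and CENPA, were lower at that threshold, as were 423 of all 14782 genes tested in that fit.

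Genes that handle new histones and copy DNA lay mostly on the other side of 0. Of 23 histone chaperone genes, all tested, 17 had a log2 fold change above 0 (52.2% of all tested genes did) and 3 were higher at an unadjusted p under 0.05 (2.85% of all tested genes). These were HAT1, the acetyltransferase of new H4 (0.14 ± 0.05), the H3-H4 chaperone NASP (0.12 ± 0.05) and SUPT16H, a subunit of FACT (0.10 ± 0.05), each with an adjusted p of 0.906. The chaperone genes summed to 3299 to 3406 CPM in EV libraries, to 3693 CPM in KRT19 replicate 3 and to 3397 to 3494 CPM in the other KRT19 libraries, so the groups overlapped. NASP had 257 CPM in KRT19 replicate 3 and 222 to 228 CPM in the other KRT19 libraries. Without KRT19 replicate 3, the chaperones higher at an unadjusted p under 0.05 were 2, HAT1 and SSRP1, beside 2.49% of all tested genes. Of 27 replication fork genes, 25 were above 0, with a median of 0.08, and 4 were higher at an unadjusted p under 0.05, beside the same 52.2% and 2.85% of all tested genes. Among the 4 were UHRF1 (0.16 ± 0.05, adjusted p = 0.868), RFC4 (0.13 ± 0.06) and the helicase subunit MCM4 (0.10 ± 0.04). The fork genes summed to 3635 to 3778 CPM in EV and 3851 to 3986 in KRT19 libraries, without overlap. Without KRT19 replicate 3, 8 of the 27 were higher at an unadjusted p under 0.05, beside 2.49% of all tested genes. The clustered histone sum and the replication fork sum thus differed between the groups in opposite directions in the same libraries, and none of these genes passed the adjusted threshold.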

How the data were processed

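The deposited table holds unnormalized read counts for every gene in 4 EV and 4 KRT19 libraries, made by the authors. The submitters' processing notes name Bowtie 0.12.2, featureCounts 1.5.0-p3, DESeq2 and the build hg38, and the extract label names TRIzol and a NEBNext Ultra RNA kit. Per the file headers the table also gives coordinates and a gene length, which equalled GENCODE 29 exon unions for all 71 clustered histone genes. Strand setting, read length and treatment of multi-mapped reads are not given in the sources used here. Groups came from the sample titles.

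The count model was fitted with edgeR 4.0.16 (R 4.3.3, limma 3.58.1). Genes passing filterByExpr (14621) were scaled by TMM and compared with glmQLFit and glmQLFTest on the group over all 8 libraries, with two-sided p-values adjusted by the Benjamini-Hochberg method over all tested genes (threshold 0.05). The SE was taken from the log2 fold change and its F statistic. CPM used TMM-scaled library sizes. The biological coefficient of variation was 6.86%. The fit was tested on simulated data. Tables and plots were made in Python 3.11.15 with pandas 2.3.3, numpy 2.4.6 and matplotlib 3.10.9.

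The genes and lists were chosen with earlier results of these data known. Named members were the 15 with the highest mean CPM, those at an unadjusted p under 0.05 or without overlap between the groups, and 2 on each side of the floor of 3 counts. Of the lists, SLBP, NPAT, CASP8AP2, LSM10, LSM11, ZNF473, H2AFX, H2AFZ, H3F3A, H3F3B, H1F0 and CENPA were named, plus up to 3 genes a list with the lowest p under 0.05. Other members are named for a sequence feature or as a partner, after their values were seen. Of 7 fibroblast, blood and endothelial markers, 2 were above the floor in every library. Of the 12 retinal markers, 2 are named and the others are given only within the count and sum of the list. Alternatives were DESeq2 size factors, upper-quartile scaling, DESeq2 1.42.0 with its Wald test, limma-voom, a looser filter (at least 1 count in all) and a stricter one (at least 5 CPM in 4 libraries), the replicate number as a block, splines on GC content and length with 5 degrees of freedom, both together, and leaving out each library. Other library sizes and left-out members or libraries for the summed level were added after seeing the data.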

Additional observations from a re-analysis of the deposited data

Results flagged for a closer look

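Of 80 groups of 4 libraries examined over the named genes and the summed level, 5 held 1 library far from the other 3, where chance flags about 1 in 20. HIST1H2BC stood high in KRT19 replicate 4 (3.02 log2 CPM against 2.71 to 2.73, a gap of 0.930 of the group's range). HIST1H3H stood high in EV replicate 3 (2.77 against 2.18 to 2.24, gap 0.900). LSM11 was high in KRT19 replicate 3 (4.39 against 4.29 to 4.30, gap 0.938), and so was CCNE2 (3.97 against 3.47 to 3.53, gap 0.883). KRT19 itself was lowest there (8.17 against 8.27 to 8.28, gap 0.949).

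HIST1H2APS4, a transcribed H2A pseudogene outside the protein-coding set, had 6 to 8 counts in EV libraries and 12 to 17 in KRT19 libraries, so its lowest KRT19 library (12) was above every EV library. Its log2 fold change was 0.99 ± 0.32 (edgeR, unadjusted p = 0.00671, adjusted p = 0.868). It was picked from 19 rows of other biotypes because its groups did not overlap. Of all tested genes, 3.44% did not overlap and 2.85% were higher at an unadjusted p under 0.05.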

How the results depend on the processing

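No clustered histone gene passed the adjusted threshold under any alternative. Their median log2 fold change stayed under 0, from -0.11 with the looser filter to -0.07 after the GC and length correction, and from -0.14 (without KRT19 replicate 4) to -0.058 when 1 library was left out. The difference of the summed level ran from -6.11% to -4.50% over library sizes and member sets and from -5.16% to -3.51% without 1 library. The 1 gene lower at an unadjusted p under 0.05 became 0 with the DESeq2 Wald test, limma-voom, the stricter filter, the replicate block and the GC and length correction with the block, and 0 to 2 without 1 library (0 without EV replicate 3 or KRT19 replicate 4, 2 without EV replicate 1 or KRT19 replicate 1), while 0 to 1 were higher. It was HIST2H2BF instead of HIST1H2BG with the looser filter and HIST1H2AC after the GC and length correction. With a floor of 10 counts, 17 genes were above it in every library, and 34 had a mean above 3.

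Over all genes, 1 past the adjusted threshold became 5 with the DESeq2 Wald test, 71 with the looser filter, 5 after the GC and length correction and 8 when the block joined it, and 1 to 5 without 1 library. The 791 at an unadjusted p under 0.05 became 1559 with the looser filter, 1195 after the GC and length correction and 620 to 1228 without 1 library (1228 without KRT19 replicate 1). RN7SL2 passed only with the looser filter. Causes were not tested. With upper-quartile normalization, 40.5% of the genes at an unadjusted p under 0.05 were higher, against 52.7%.

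No pairing by replicate number was found (correlations of same-numbered residuals -0.16 to 0.06). The replicate block left 451 genes at an unadjusted p under 0.05 and 0 clustered histone genes, and gave LSM11 0.0014.

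Of 657 single-gene values of 39 genes, 60 changed sign, all of genes near 0. With the GC and length correction HIST1H2BK was at 0.0039, HIST1H2BN at -0.043, NPAT at -0.012 and H3F3A at -0.033, and with the block added at 0.0037, -0.033, -0.018 and -0.033. With upper-quartile normalization HIST1H2BN, SLBP, H2AFX, H2AFZ and H3F3A were at -0.011, -0.0073, -0.012, -0.010 and -0.011. With the looser filter HIST1H2BN, H2AFX, H2AFZ and H3F3A were at -0.0014, -0.00093, -0.00017 and -0.00045, and with the stricter filter H2AFX, H2AFZ and H3F3A at -0.0011, -0.00011 and -0.00045. LSM11 was at 9.8e-06 with DESeq2 and 0.0021 with limma-voom. Without 1 library the ranges were -0.060 to 0.012 for HIST1H2BK, -0.035 to 0.19 for HIST1H3H, -0.11 to 0.075 for HIST1H2BN, -0.037 to 0.034 for SLBP, -0.076 to 0.12 for NPAT, -0.044 to 0.086 for LSM10, -0.043 to 0.040 for LSM11, -0.15 to 0.0056 for ZNF473, -0.022 to 0.024 for H2AFX, -0.015 to 0.033 for H2AFZ and -0.015 to 0.015 for H3F3A.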

Other observations

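Besides the 71 protein-coding genes, 19 rows of other biotypes carry a clustered histone name. The highest were the pseudogenes HIST2H2BC, with 64 to 87 counts, and HIST2H2BD, with 7 to 38 counts. HIST2H2BC thus stood above most protein-coding members of the HIST2 cluster, of which HIST2H2BE (87 to 127 counts) and HIST2H2AC (9 to 21) were above the floor in every library. HIST1H4C, an H4 gene of the HIST1 cluster, had 1 to 3 counts in every library.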
